A study of Mus musculus with 62 samples.

Results

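The transgene by Nlrp3 interaction at 6 months was the difference between 2 differences in gene expression: (APPPS1_NLRP3 minus NLRP3) minus (APPPS1 minus WT). It was measured in CD11b+ cells of the brains of mice (microglia, by the series title), in 17 of the 62 RNA-seq libraries of the series. The series compared 4 genotypes at 4, 6 and 12 months. All mice of the 17 libraries were 6 months old. WT_6m (5 libraries) is wild type, NLRP3_6m (4 libraries) lacks Nlrp3 (NLRP3-/-), APPPS1_6m (3 libraries) carries the APP/PS1 transgenes that model Alzheimer's disease, and APPPS1_NLRP3_6m (5 libraries) carries the transgenes and lacks Nlrp3. Libraries were taken by their genotype and age labels, and an 18th library, APPPS1_6m replicate 21, was left out because it held 659 counts. A positive value means that the difference made by the transgenes was larger, or less negative, without Nlrp3 than with it. The promoter that drives the transgenes, the pooling of animals and whether libraries come from separate animals were not given in the sources used here, so p-values reflect the spread between libraries, which may be technical.

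Nlrp3 encodes the sensor of an inflammasome, a protein complex that activates caspase-1, which in turn cleaves the precursor of interleukin-1 beta. Microglia are the resident macrophages of the brain and gather around amyloid plaques in mice with APP and presenilin transgenes. Expression of Il1b, Tnf and of Nlrp3 itself is induced through NF-kB, a family of transcription factors, whereas type I interferons act through other transcription factors on elements called ISRE.

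Total counts per library ranged from 15336710 to 27604393, with a median of 18892510. Nlrp3 (ENSMUSG00000032691, chr11:59541568-59566956, + strand) lay at 81.3 to 194 CPM (counts scaled to library size) in WT_6m and at 92.2 to 127 CPM in APPPS1_6m, against 0.244 to 0.729 CPM in NLRP3_6m and 0.0606 to 1.02 CPM in APPPS1_NLRP3_6m. Its interaction of 0.29 ± 0.55 (adjusted p = 0.923) therefore compared residual reads. Microglial genes were high in all 17 libraries: Tmem119 lay between 1597 and 2607 CPM, P2ry12 between 3678 and 6593 CPM and Itgam, which encodes CD11b, between 298 and 477 CPM. Sex was not labelled, and reads of Xist and of Y-linked genes marked 3 of 5 APPPS1_NLRP3_6m libraries (replicates 28, 29 and 30) and 1 of 4 NLRP3_6m libraries (replicate 27) as male and the other 13 libraries as female. The scaling factor of APPPS1_NLRP3_6m replicate 31 was 0.84, against 0.95 to 1.09 in the other 16 libraries. Between pairs of libraries of 1 group, the counts had a chi-square of at least 12.0 per degree of freedom, so that no library repeated another.

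Of 18739 genes tested, 2 passed an adjusted p under 0.05 (edgeR quasi-likelihood test with Benjamini-Hochberg adjustment), which is 0.0107% of the genes, and both were lower: Mamdc2 and F2r. No gene was higher at this threshold, although 830 genes were higher (4.43%) and 966 lower (5.16%) at an unadjusted p under 0.05, together 9.58%. DESeq2 called 139 genes (88 higher, 51 lower) and limma voom called 17 (9 higher, 8 lower), among them both genes named above. The median interaction over all genes was 0.0015 on the log2 scale, and 50.2% of genes were positive.

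Mamdc2, which encodes a secreted proteoglycan with MAM domains (ENSMUSG00000033207, chr19:23302609-23448442, - strand), was at 20.7, 20.2 and 29.3 CPM in the APPPS1_6m libraries. In WT_6m it was at 2.48, 1.14, 1.40, 1.02 and 0.727 CPM, in NLRP3_6m at 3.16, 6.65, 5.33 and 4.76 CPM and in APPPS1_NLRP3_6m at 4.17, 1.96, 5.80, 0.914 and 2.30 CPM. All 3 APPPS1_6m libraries lay above the other 14 libraries, and the range of APPPS1_NLRP3_6m overlapped those of WT_6m and NLRP3_6m. Every NLRP3_6m library lay above every WT_6m library, and the interaction takes in that difference. The difference without Nlrp3 was 1.95 ± 0.43 without the transgenes and −2.92 ± 0.43 with them. The transgene difference was 4.12 ± 0.45 with Nlrp3 and −0.75 ± 0.41 without it. The interaction was thus −4.87 ± 0.60 (adjusted p = 0.00766), the call with the smallest p. It passed in all 17 fits that left out 1 library, with adjusted p-values from 0.00176 to 0.0337, and in 10 of 13 other settings. Over the 13 settings its value ranged from −5.77 to −3.42. It lost the call with a term for each value of the first title number and with second title number 2 alone, where no gene was called. Of the 17 libraries only APPPS1_6m replicates 23 and 24 carry the first title number 4. With terms for that number the APPPS1_6m level thus rests on replicate 22. Second title number 1 alone holds only that APPPS1_6m library, so its calls are not read here.

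F2r, which encodes the thrombin receptor PAR1 (ENSMUSG00000048376, chr13:95601803-95618487, - strand), was at 9.40, 8.72 and 11.5 CPM in APPPS1_6m. It was at 3.13, 4.71, 5.55, 3.62 and 3.27 CPM in WT_6m and at 3.34, 1.65, 2.85 and 2.88 CPM in NLRP3_6m. In APPPS1_NLRP3_6m it was at 1.66, 1.04, 1.44, 1.31 and 0.969 CPM. The APPPS1_6m libraries lay above all others, and of the APPPS1_NLRP3_6m libraries only replicate 25 reached the lowest NLRP3_6m library. The transgene difference was 1.28 ± 0.25 with Nlrp3 and −1.05 ± 0.25 without it, an interaction of −2.33 ± 0.35 (adjusted p = 0.0429). F2r kept its call in 3 of 17 fits that left out 1 library (WT_6m replicate 18, NLRP3_6m replicate 27 or APPPS1_NLRP3_6m replicate 25), with adjusted p-values up to 0.207 in the others, and in 7 of 13 other settings. It lost the call with a term for sex.

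**Figure D1:**
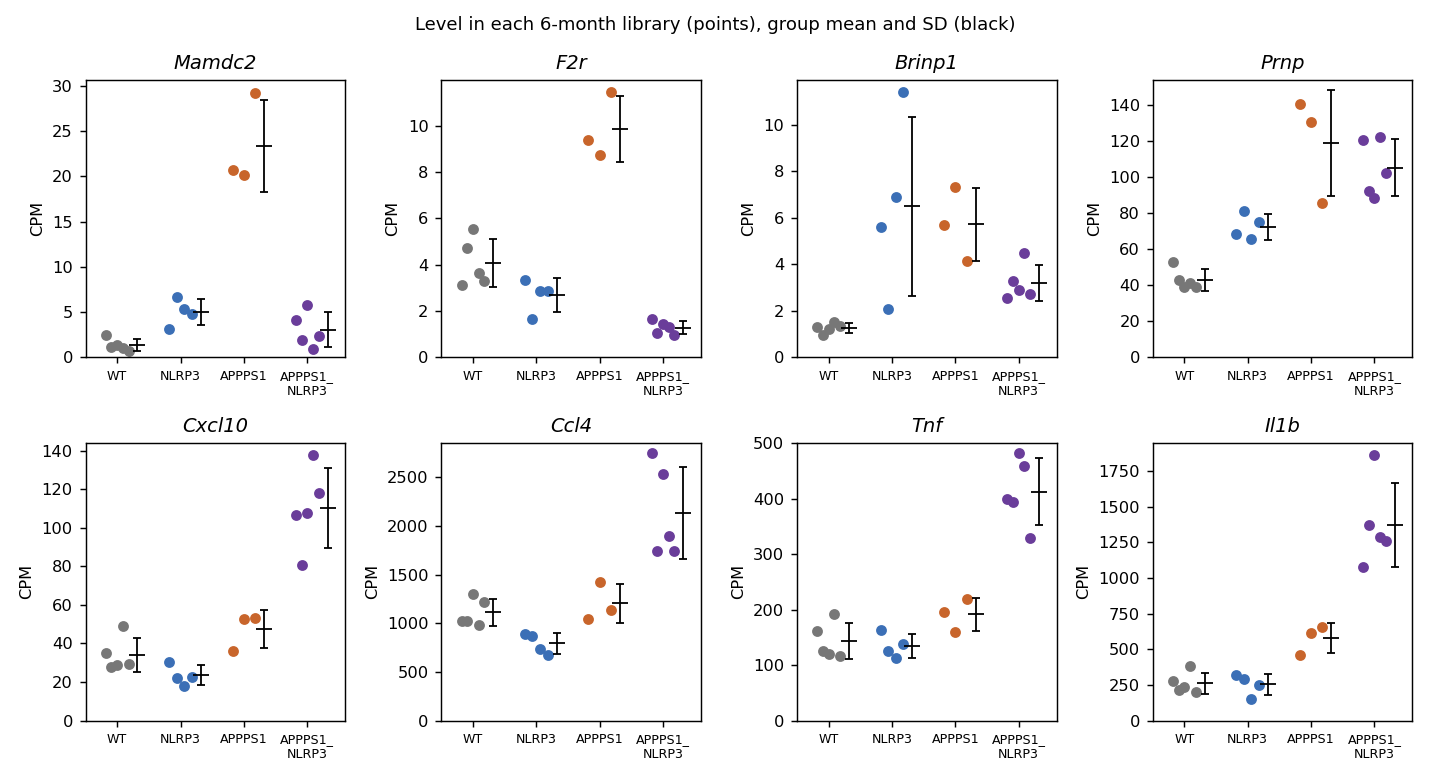
Level in CPM (vertical axes, linear, from 0) of 8 genes in each of the 17 libraries, as points by group on the horizontal axis, in order of replicate number, with group mean and SD in black. For Mamdc2 and F2r the 3 APPPS1_6m libraries stand above all others, and for Cxcl10, Ccl4, Tnf and Il1b the 5 APPPS1_NLRP3_6m libraries do.

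The other 8 genes that the naming rule took on the lower side had adjusted p-values from 0.0561 to 0.121 and did not pass. Brinp1, a gene of neurons that restrains cell division, was at 1.30, 0.942, 1.19, 1.53 and 1.35 CPM in WT_6m and at 5.71, 7.30 and 4.13 CPM in APPPS1_6m. It was at 5.59, 2.08, 6.89 and 11.4 CPM in NLRP3_6m and at 2.57, 3.26, 2.88, 4.50 and 2.73 CPM in APPPS1_NLRP3_6m. Every library of the other 3 groups lay above the WT_6m libraries, and the interaction was −3.19 ± 0.52 (adjusted p = 0.0561). Cadm2, which encodes a cell adhesion molecule of neurons, had −1.36 ± 0.25 (adjusted p = 0.0754), with NLRP3_6m (16.1 to 20.7 CPM) above the other 3 groups (6.39 to 10.4 CPM in WT_6m, 8.85 to 13.4 CPM in APPPS1_6m and 7.27 to 12.2 CPM in APPPS1_NLRP3_6m). Ndn, Dock3, B3galt2 and Lhfp had values between −2.13 and −1.64, and Rab39 had −0.55 ± 0.11.

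Prnp, the prion protein gene (ENSMUSG00000079037, chr2:131909928-131938429, + strand), is of interest because its promoter drives the transgenes of some Alzheimer's disease models, as the Thy1 promoter does in others. It was at 52.9, 42.9, 38.7, 40.9 and 38.8 CPM in WT_6m, 68.0, 81.1, 65.3 and 75.2 CPM in NLRP3_6m and 140.5, 131 and 85.3 CPM in APPPS1_6m. In APPPS1_NLRP3_6m it was at 120.2, 92.3, 88.0, 122 and 102 CPM, so that 2 of the 3 APPPS1_6m libraries lay above the range of this group and 1 below it. The interaction was −0.93 ± 0.20 (adjusted p = 0.121), with a transgene difference of 1.47 ± 0.15 with Nlrp3 and 0.54 ± 0.14 without it. Thy1 was under 2 CPM in every library, with −2.51 ± 1.24 (adjusted p = 0.539). App, the amyloid precursor gene, was at 249 to 314 CPM in WT_6m, 266 to 297 CPM in NLRP3_6m, 299.8 to 357 CPM in APPPS1_6m and 278 to 342 CPM in APPPS1_NLRP3_6m, with an interaction of −0.16 ± 0.13 (adjusted p = 0.773).

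Markers of neurons and astrocytes lay on the same side. None of 11 neuron markers was called, but 6 were lower at an unadjusted p under 0.05, with a median of −1.84 and all 11 negative. Of 10 astrocyte markers 9 were lower at that level, with a median of −1.24 and all 10 negative. Of all genes tested, 5.16% were lower at that level. Slc4a4, a bicarbonate transporter of astrocytes, had −1.70 ± 0.48 (unadjusted p = 0.00261), and Aqp4, the astrocytic water channel, had −1.31 ± 0.40. Tubb3, a neuronal tubulin, had −2.29 ± 0.63 and Pdgfrb, a receptor of pericytes, −1.26 ± 0.29 (adjusted p = 0.152). The list of endothelial and pericyte markers that Pdgfrb is from went both ways, with 5 of 12 positive and a median of −0.03, and choroid plexus and ependyma markers had 3 of 8 positive and a median of −0.05. Pdgfrb lay at 4.11 to 7.44 CPM in APPPS1_NLRP3_6m, below all 12 other libraries, of which the lowest was at 9.97 CPM.

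The summed level of the neuron markers was 41.1 to 253 CPM in WT_6m, 99.8 to 353 CPM in NLRP3_6m, 203 to 619 CPM in APPPS1_6m and 40.2 to 452 CPM in APPPS1_NLRP3_6m. That of the astrocyte markers was 255 to 458, 473 to 585, 275 to 576 and 172 to 564 CPM in the same order. The sums thus overlapped between APPPS1_6m and APPPS1_NLRP3_6m for both lists. In APPPS1_6m replicates 22, 23 and 24 the neuron sum was 619, 203 and 406 CPM, and Mamdc2 was at 20.7, 20.2 and 29.3 CPM. The part of other brain cells in the lower genes was not tested, and in these bulk libraries fewer cells of a type and less RNA per cell cannot be told apart.

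On the higher side the 10 genes named by the rule did not pass either, with adjusted p-values from 0.0525 to 0.101. They include Ccl4, Tnf and Cxcl10, cytokines that recruit or activate immune cells. Ccl4, a chemokine (ENSMUSG00000018930, chr11:83662584-83664683, + strand), was at 2746, 1744, 2531, 1899 and 1743 CPM in APPPS1_NLRP3_6m. It was at 1019, 1026, 1301, 986 and 1222 CPM in WT_6m, 886, 873, 739 and 671 CPM in NLRP3_6m and 1046, 1427 and 1135 CPM in APPPS1_6m. All 5 libraries with the transgenes and without Nlrp3 lay above the other 12, and all 4 NLRP3_6m libraries lay below the lowest WT_6m library. The transgene difference was 0.12 ± 0.17 with Nlrp3 and 1.43 ± 0.16 without it, an interaction of 1.31 ± 0.23 (adjusted p = 0.0697).

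Tnf, tumour necrosis factor (ENSMUSG00000024401, chr17:35199381-35202007, - strand), was at 399, 395, 482, 459 and 329 CPM in APPPS1_NLRP3_6m, and the highest of the other 12 libraries, from APPPS1_6m, was at 219 CPM. Its interaction was 1.20 ± 0.24 (adjusted p = 0.101). Il1b, whose product is the main substrate of the Nlrp3 inflammasome (ENSMUSG00000027398, chr2:129364570-129371139, - strand), was at 1079, 1368, 1860.0, 1290.2 and 1262 CPM in APPPS1_NLRP3_6m. It was at 458, 611 and 659 CPM in APPPS1_6m, 278, 213, 238, 384 and 202 CPM in WT_6m and 319, 293, 152 and 252 CPM in NLRP3_6m. All 5 APPPS1_NLRP3_6m libraries lay above the 3 of APPPS1_6m and these above all of WT_6m and NLRP3_6m, which overlapped. The interaction of Il1b was 1.32 ± 0.32 (adjusted p = 0.199), and that of Il1a, the related alarmin, was 1.08 ± 0.24 (adjusted p = 0.121). Neutrophils also express Il1b, and the 10 neutrophil markers tested had a median of 1.37 with all 10 positive and none at an unadjusted p under 0.05. Their summed level was 35.9 to 345 CPM in WT_6m, 39.4 to 368 CPM in NLRP3_6m, 45.6 to 199 CPM in APPPS1_6m and 18.5 to 666 CPM in APPPS1_NLRP3_6m. The library with the lowest neutrophil sum of all, APPPS1_NLRP3_6m replicate 31 at 18.5 CPM, had Il1b at 1262 CPM. The library with the highest sum of all, APPPS1_NLRP3_6m replicate 29 at 666 CPM, had the highest Il1b, at 1860.0 CPM. The part of neutrophils in the Il1b result was not tested.

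The list of NF-kB cytokines and feedback genes held 24 tested members, of which none was called, 18 were higher at an unadjusted p under 0.05 and none was lower, against 4.43% and 5.16% of all genes. All 24 were positive, with a median of 0.90. The medians of the transgene difference were 0.09 with Nlrp3 and 0.90 without it. Cytokines among them were Ccl3 at 1.13 ± 0.23 and Il12b, a subunit of interleukins 12 and 23, at 3.58 ± 1.35. Feedback inhibitors of NF-kB were Nfkbia at 0.88 ± 0.28 (unadjusted p = 0.00601) and Tnfaip3 at 0.89 ± 0.29 (unadjusted p = 0.00672). Ptgs2, the cyclooxygenase that makes prostaglandins, had 1.56 ± 0.32 (adjusted p = 0.113). The summed level was 7510.3 to 10442 CPM in APPPS1_NLRP3_6m, above all libraries of WT_6m (5339.6 to 6439 CPM), APPPS1_6m (5831 to 6008 CPM) and NLRP3_6m (4142 to 5192 CPM). The 13 female libraries hold 2 of APPPS1_NLRP3_6m, replicates 25 and 31. In female libraries alone the median was 0.91, with 12 members higher at an unadjusted p under 0.05. With a term added for the first title number it was 0.43, with 5 members.

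Immediate-early genes, which respond to cell isolation as well as to stimuli, lay on the same side. All 24 were positive, and 11 were higher at an unadjusted p under 0.05, against 4.43% of all genes. The median was 0.75. The medians of the transgene difference were −0.71 with Nlrp3 and 0.04 without it. Fosb, a transcription factor subunit of this group, was at 68.0, 46.5 and 75.8 CPM in APPPS1_6m, 107, 145, 172, 180.3 and 228 CPM in WT_6m, 117, 147, 124 and 73.3 CPM in NLRP3_6m and 126, 133, 159.7, 111 and 52.2 CPM in APPPS1_NLRP3_6m. Its interaction was 1.42 ± 0.39 (adjusted p = 0.279), with APPPS1_6m low and APPPS1_NLRP3_6m overlapping the groups without transgenes. The summed level of the list was 18745 to 30253 CPM in WT_6m, 16062 to 22011 CPM in NLRP3_6m, 13472 to 14727 CPM in APPPS1_6m and 10539.5 to 27502 CPM in APPPS1_NLRP3_6m. Within APPPS1_NLRP3_6m, replicate 29 had the highest immediate-early sum (27502 CPM) and the highest NF-kB sum (10442 CPM). Replicate 31 had the lowest of both in that group (10539.5 and 7510.3 CPM). The part of the immediate-early response in the cytokine result was not tested.

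**Figure D2:**
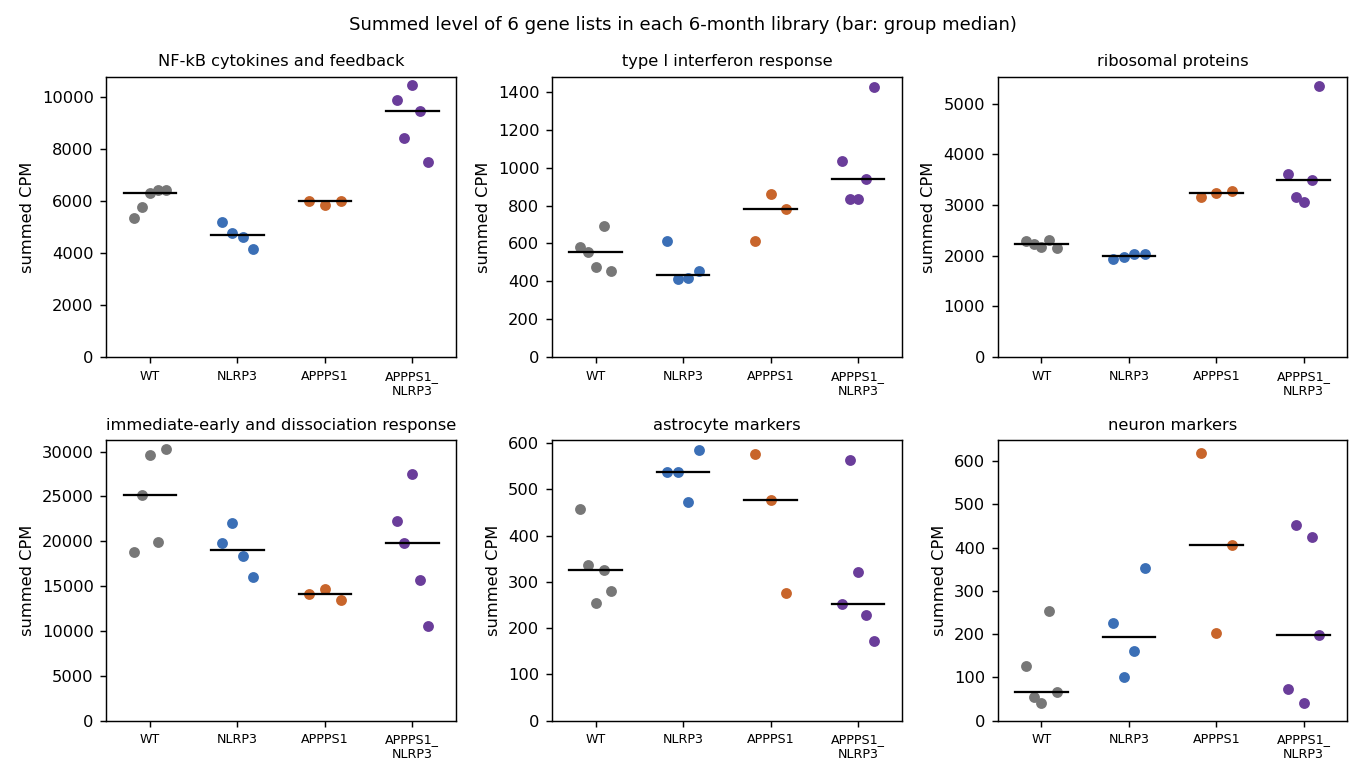
Summed level in CPM (vertical axes, linear, from 0) of 6 gene lists in each 6-month library, as points by group, with the group median as a bar. The NF-kB sum is highest in the 5 APPPS1_NLRP3_6m libraries. The immediate-early sum is lowest on the median in APPPS1_6m, and the astrocyte and neuron sums overlap between APPPS1_6m and APPPS1_NLRP3_6m.

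Cxcl10, a chemokine induced by interferons and by NF-kB (ENSMUSG00000034855, chr5:92346638-92348889, - strand), had the largest interaction of the 10 genes named on the higher side. It was at 107, 80.6, 108, 138 and 118 CPM in APPPS1_NLRP3_6m. It was at 35.1, 27.6, 28.6, 49.1 and 29.4 CPM in WT_6m, 30.5, 22.2, 18.1 and 22.8 CPM in NLRP3_6m and 35.95, 52.7 and 53.3 CPM in APPPS1_6m. All 5 APPPS1_NLRP3_6m libraries lay above the other 12, and the lowest was at 80.6 CPM against a highest of 53.3 CPM elsewhere. The interaction was 1.76 ± 0.30 (adjusted p = 0.0606), and it passed in 7 of 13 other settings and in 1 of 17 fits that left out 1 library, that without APPPS1_NLRP3_6m replicate 25.

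The 250 bases before the start of 3 genes are shown because they carry matches to the sequences that these factors bind. Sequences are from RefSeq (GRCm38.p6), 5′ to 3′ on the gene's strand, and capitals mark matches on either strand to a kB motif (GGGA, any 4 bases, CC) or to an ISRE motif (GAAA, any 2 bases, GAAA), in which matches may overlap.
Cxcl10 (chr5:92348890-92349139, - strand): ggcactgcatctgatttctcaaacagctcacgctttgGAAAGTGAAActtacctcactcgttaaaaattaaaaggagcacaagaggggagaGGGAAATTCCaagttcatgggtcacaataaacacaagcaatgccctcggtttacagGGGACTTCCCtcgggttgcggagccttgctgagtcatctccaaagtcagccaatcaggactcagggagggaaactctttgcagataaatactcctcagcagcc
Isg15 (chr4:156200819-156201068, - strand): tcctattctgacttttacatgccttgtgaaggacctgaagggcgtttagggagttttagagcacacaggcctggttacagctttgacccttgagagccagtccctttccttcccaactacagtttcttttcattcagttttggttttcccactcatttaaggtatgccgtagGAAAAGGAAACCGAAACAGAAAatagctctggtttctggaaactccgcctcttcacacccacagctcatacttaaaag
Rasgef1b (chr5:99252928-99253177, - strand): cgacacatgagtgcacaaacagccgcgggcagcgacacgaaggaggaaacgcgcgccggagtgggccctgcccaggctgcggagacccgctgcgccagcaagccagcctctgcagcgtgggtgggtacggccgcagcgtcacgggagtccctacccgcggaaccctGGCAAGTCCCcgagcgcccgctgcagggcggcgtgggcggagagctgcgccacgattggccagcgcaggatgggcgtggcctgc
The Cxcl10 sequence holds an ISRE match that starts 213 bases before the gene's start and kB matches at 159 and 103 bases, the last of them on both strands. The Isg15 sequence holds 3 overlapping ISRE matches and no kB match, and that of Rasgef1b holds a kB match on the opposite strand. The Rasgef1b window lies before the RefSeq start, which is inside the longer gene that GENCODE annotates (chr5:99217426-99729065, - strand, 10 transcripts), so other starts of this gene are not shown. Those of Tnf, Il1b, Il1a, Ccl3, Il12b, Ptgs2, Irf7, Ier3, Bcl2a1b, Cdkn1a and F2r held neither motif in this window. Those of Nfkbia and Tnfaip3 held kB matches and no ISRE match. Of 15 promoters of the NF-kB list in the table, 9 (60%) held a kB motif, against 17.3% of all 27025 promoters and 22% of the 12296 promoters of genes tested. The kB motif was also in 37.5% of the promoters of the interferon list and in 38.1% of the 21 of the immediate-early list. Of 16 promoters of the interferon list, 8 (50%) held an ISRE motif, against 3.04% of all promoters and 2.81% of those of genes tested. Ccl4, Usp18 and Mamdc2 have no entry in the table.

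The 24 members of the type I interferon list were all positive, and none was called. At an unadjusted p under 0.05, 11 were higher and none lower, against 4.43% and 5.16% of all genes. The list's median was 0.72. The medians of the transgene difference were 0.29 with Nlrp3 and 1.06 without it. Usp18, a protease that limits interferon signalling, was at 36.3, 29.5, 30.6, 24.4 and 44.9 CPM in APPPS1_NLRP3_6m against 17.6, 25.3 and 21.8 CPM in APPPS1_6m, groups that overlapped in 1 library, and its interaction was 1.16 ± 0.29 (adjusted p = 0.222). Isg15, a ubiquitin-like modifier, had 0.82 ± 0.38, Irf7, a transcription factor, 0.74 ± 0.31 and Mx1, an antiviral GTPase, 1.01 ± 0.41. The summed level was highest in APPPS1_NLRP3_6m replicate 31, at 1427 CPM, and the other 4 libraries of that group (835 to 1034 CPM) overlapped the APPPS1_6m libraries (612 to 859.6 CPM). The median was 1.21 in the 7 libraries with second title number 1 alone and 0.35 in the 10 with number 2 alone. Those 7 hold 1 APPPS1_6m library, replicate 22, which at 612 CPM had the lowest sum of its group.

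Bcl2a1b, an inhibitor of apoptosis induced by NF-kB (ENSMUSG00000089929, chr9:89199209-89207827, + strand), was closest to the threshold on the higher side. It was at 168, 144, 166, 163 and 252 CPM in APPPS1_NLRP3_6m, and the highest of the other 12 libraries was at 112 CPM. In WT_6m it was at 83.5, 77.2, 69.6, 93.4 and 82.0 CPM, and all 4 NLRP3_6m libraries lay lower, at 59.9, 55.2, 59.3 and 50.1 CPM. Its interaction was 1.31 ± 0.21 (adjusted p = 0.0525), called in 9 of 13 other settings and in 4 of 17 leave-outs. The near-identical copies Bcl2a1a, with 0.59 ± 0.32 (unadjusted p = 0.0836), and Bcl2a1d, with 0.39 ± 0.27, did not follow at that size, and reads may be split between the copies.

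Cdkn1a, the cell cycle inhibitor p21 (ENSMUSG00000023067, chr17:29090976-29100727, + strand), had 1.15 ± 0.19 (adjusted p = 0.0606). It was at 74.1, 77.4, 95.3, 93.0 and 89.6 CPM in APPPS1_NLRP3_6m, 68.9, 44.6 and 56.1 CPM in APPPS1_6m, 47.1, 62.1, 47.3 and 36.8 CPM in NLRP3_6m and 57.6, 66.7, 65.6, 72.0 and 83.9 CPM in WT_6m. The transgene difference was −0.28 ± 0.14 with Nlrp3 and 0.87 ± 0.13 without it, so that the 2 differences had opposite signs. The same held for Rasgef1b, an exchange factor for small GTPases (−0.42 ± 0.16 and 0.84 ± 0.15), Snhg15, a long noncoding RNA (−0.46 ± 0.16 and 0.71 ± 0.15), and Trafd1, a negative regulator of innate immune signalling (−0.31 ± 0.08 and 0.23 ± 0.07). It held too for Ftl1, the ferritin light chain (−0.24 ± 0.11 and 0.54 ± 0.10), and Hspa5, a chaperone of the endoplasmic reticulum (−0.15 ± 0.09 and 0.45 ± 0.08). In NLRP3_6m the means of these 6 genes lay below those of WT_6m, and the interaction takes in that difference: for Hspa5, NLRP3_6m lay at 1409, 1283, 1275 and 1329 CPM, below all WT_6m libraries (1519 to 1835 CPM).

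**Figure D3:**
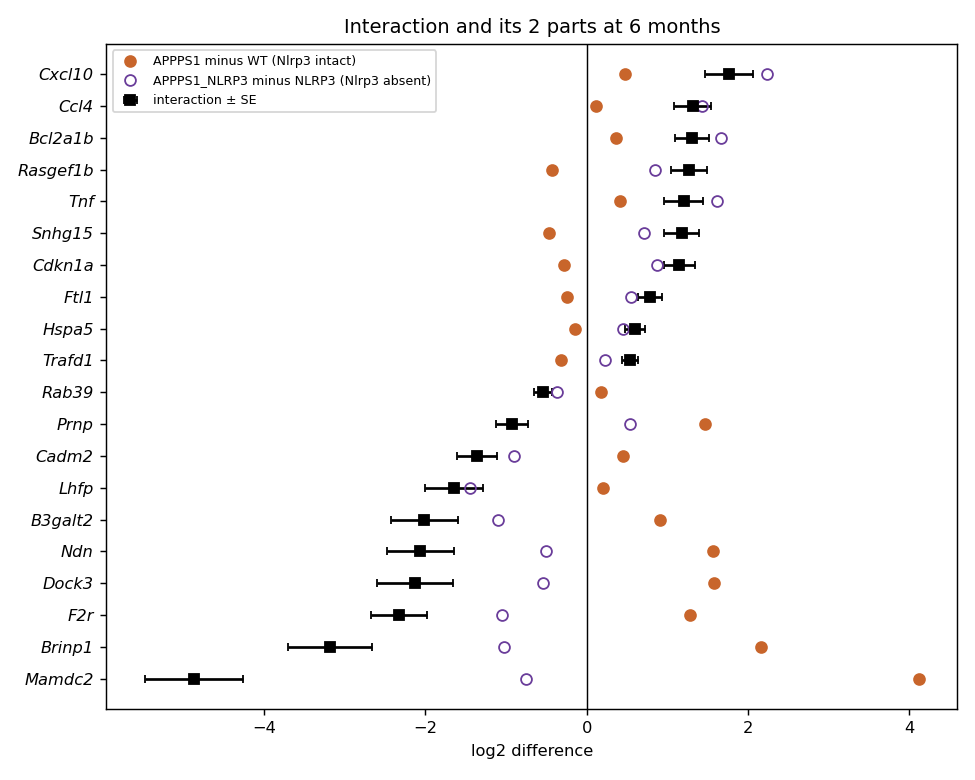
Interaction with its SE (black squares) and the 2 transgene differences it is made of (filled circles: APPPS1 minus WT; open circles: APPPS1_NLRP3 minus NLRP3), on the log2 scale (horizontal axis), for the 10 genes with the smallest p in each direction (vertical axis). For the lower genes other than Prnp the 2 differences have opposite signs, and for Ccl4, Cxcl10, Bcl2a1b and Tnf both are positive.

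Of the 22 inflammasome and IL-1 genes tested, 6 were higher at an unadjusted p under 0.05, against 4.43% of all genes. None was lower, and the median was 0.21. These 6 were Il1a, Il1b, the receptor antagonist Il1rn at 1.60 ± 0.45, Casp4 at 0.81 ± 0.27, Gsdmd at 0.30 ± 0.11 and Txnip at 0.55 ± 0.24. The other parts of the Nlrp3 complex lay near 0: Pycard, the adaptor ASC, had −0.03 ± 0.21, Casp1, caspase-1, 0.23 ± 0.14 and Nek7, which binds Nlrp3, 0.08 ± 0.13. Of 20 Toll-like receptor and adaptor genes, 6 were higher at that level, among them Tlr2, a receptor for bacterial lipoproteins, at 0.82 ± 0.23 (adjusted p = 0.295) and Cd14, its co-receptor, at 0.79 ± 0.24, while Tlr4 had −0.01 ± 0.14.

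Antigen presentation genes were positive throughout but did not pass. Their summed levels were highest in APPPS1_NLRP3_6m replicate 31, at 12649.5 CPM for MHC class I and 15999 CPM for MHC class II. The other 4 libraries of that group lay at 6897 to 9516 and 10118 to 10502 CPM. APPPS1_6m lay at 5633 to 7867 and 7729 to 10321 CPM, in the same order. Of 16 MHC class I genes, all positive, 6 were higher at an unadjusted p under 0.05, against 4.43% of all genes. The class I median was 0.37, and H2-K1, a classical class I chain, had 0.61 ± 0.19 (adjusted p = 0.334). Class I genes are near-identical in parts, so reads may be assigned to the wrong member. Of 11 MHC class II genes 2 were higher, Cd74 at 0.83 ± 0.37 and H2-DMa at 0.35 ± 0.16, with a median of 0.45. Cd74 lay at 275 to 377 CPM in APPPS1_NLRP3_6m, within the 249 to 434 CPM of APPPS1_6m. It lay at 262 to 715 CPM in WT_6m and at 210 to 264 CPM in NLRP3_6m. The difference without Nlrp3 was thus −0.03 ± 0.27 with the transgenes and −0.86 ± 0.25 without them. Leaving out WT_6m replicate 19 gave an interaction of 0.53 for Cd74. Ribosomal protein genes were all positive too, with 9 of 20 higher and a median of 0.39. Rplp0 was at 282, 271, 277, 298 and 423 CPM in APPPS1_NLRP3_6m, above all 12 other libraries, with 0.57 ± 0.16 (adjusted p = 0.282). The ribosomal sum was 5352 CPM in APPPS1_NLRP3_6m replicate 31 and 3069.7 to 3605 CPM in the other 4 libraries of that group, against 3151 to 3285 CPM in APPPS1_6m. Only 2 APPPS1_NLRP3_6m libraries were female, replicate 25 and replicate 31, the library at 5352 CPM. In female libraries alone the ribosomal median was 0.68 with all 20 higher at an unadjusted p under 0.05. With a term added for the first title number it was 0.12 with none.

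Disease-associated microglia genes, which are induced around plaques, had median transgene differences of 1.57 with Nlrp3 and 2.14 without it. The interaction had a median of 0.19, with 4 of 25 higher at an unadjusted p under 0.05, against 4.43% of all genes. Cst7, the protease inhibitor cystatin F, was at 629, 565 and 802 CPM in APPPS1_6m and at 1048, 464, 909, 723 and 1045 CPM in APPPS1_NLRP3_6m, ranges that overlapped, against at most 10.8 CPM in the libraries without transgenes. Its interaction was 0.17 ± 0.34 (adjusted p = 0.930). Spp1, osteopontin, was at 226, 72.4, 116, 148 and 176 CPM in APPPS1_NLRP3_6m and 53.8, 69.7 and 91.0 CPM in APPPS1_6m, with 1.15 ± 0.39 (adjusted p = 0.364). Lgals3, galectin-3, had 1.28 ± 0.43 and Apoe, the apolipoprotein E gene, −0.02 ± 0.29.

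Homeostatic microglia genes had a median of −0.01, with none of 20 at an unadjusted p under 0.05 in either direction. Values lay between −0.29 for Gpr34 and 0.26 for Fcrls, and Tmem119, a membrane protein of microglia, had 0.09 ± 0.11. Oxidative phosphorylation (0.04) and proliferation (0.15) likewise had no member at that level among 24 and 23. Cholesterol synthesis (0.03) had 2 of 22 lower, Lss at −0.60 ± 0.22 and Hsd17b7 at −0.81 ± 0.33. Lipid transport (0.05) had 1 of 21 higher, Ch25h, which makes 25-hydroxycholesterol, at 1.39 ± 0.49. Glutamine and glutamate metabolism had a median of −0.10 with 1 of 24 higher, Gclc, which makes glutathione's precursor, at 0.60 ± 0.14, and 2 lower, Gad1 and Slc1a2, genes of neurons and astrocytes. Medians were 0.20 for the lysosome (3 of 27 higher), 0.15 for phagocytic receptors (2 of 25 higher, C3ar1 and Itgb2), 0.16 for glycolysis and oxygen response (1 of 23 higher and 1 lower) and −0.08 for complement (1 of 18 higher, C3ar1). The counts of 1 per list are near the shares over all genes, which were 4.43% higher and 5.16% lower at that level.

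**Figure D4:**
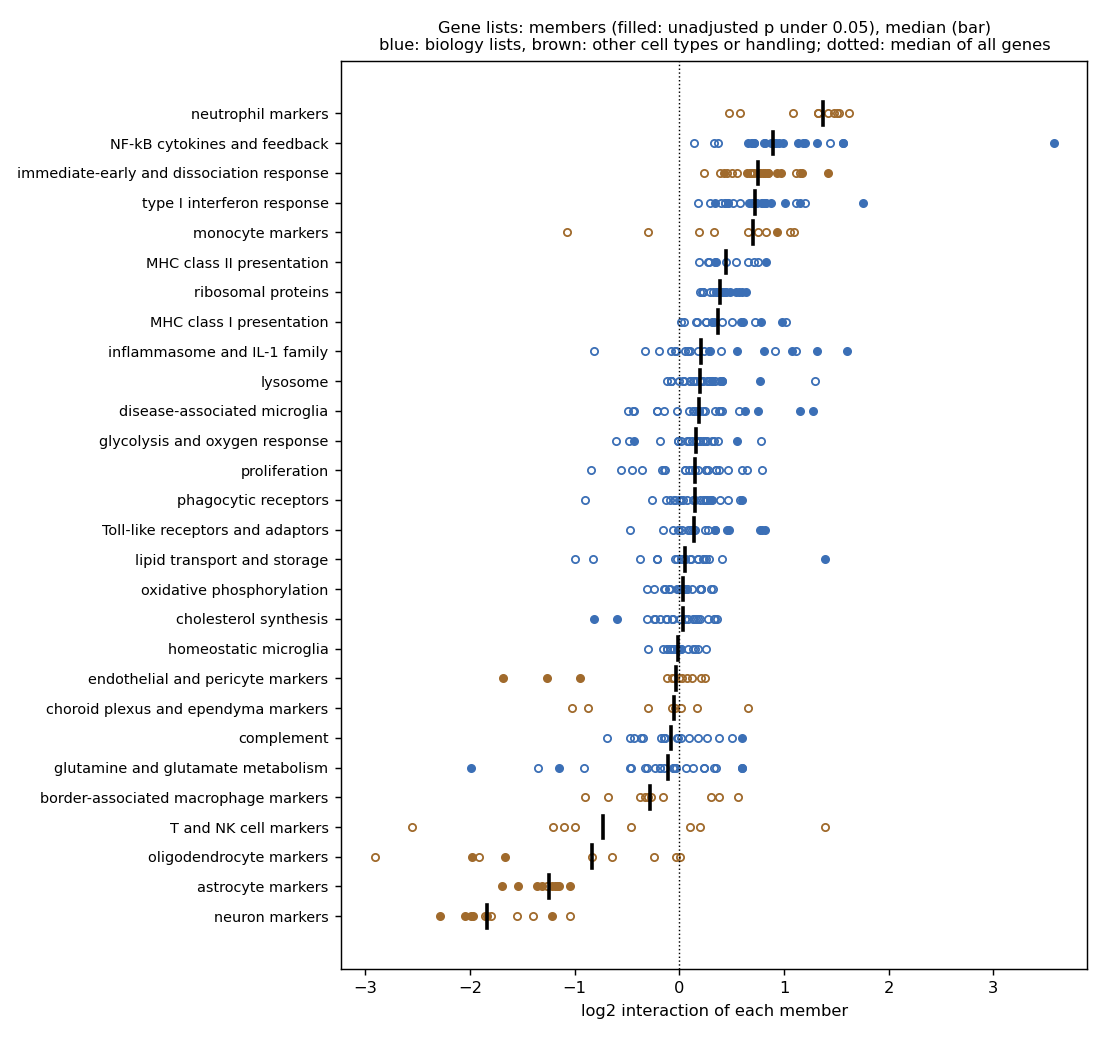
Log2 interaction of each member (points) of the 28 gene lists with at least 8 members tested, in order of the list's median (black bar), with members at an unadjusted p under 0.05 filled. NF-kB, immediate-early and interferon lists lie to the right of the median of all genes (dotted line) and neuron and astrocyte markers to the left, while homeostatic genes lie around 0.

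Of the markers of other blood and border cells, none of 10 border-associated macrophage markers (median −0.28), 8 T and NK cell markers (−0.73), 8 choroid plexus and ependyma markers (−0.05) and 2 B cell markers (−0.12) was at an unadjusted p under 0.05. Cd3e, a defining T cell gene, was at 0 in 9 of 17 libraries and at most at 0.53 CPM. Of 10 monocyte markers (median 0.70) 1 was higher, Nr4a1, which is also an immediate-early gene. Oligodendrocyte markers (median −0.83) had 2 of 9 lower, endothelial and pericyte markers (−0.03) 3 of 12 and erythroid markers (−1.50) 1 of 5. Over all genes, 4.43% were higher and 5.16% lower at that level. Pituitary hormone transcripts reached 153.6 CPM (Gh) and 88.6 CPM (Prl) in APPPS1_6m replicate 23, a library of the group that Mamdc2 and F2r are high in. In APPPS1_6m replicates 22 and 24 Gh was at most at 0.0492 CPM. Without replicate 23 the interaction was −5.01 (adjusted p = 0.0233) for Mamdc2 and −2.43 (adjusted p = 0.0944) for F2r, which then did not pass.

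The same interaction was computed at the other ages in a fit of 61 libraries and 19881 genes, in which 0 genes were called at 4 months (347 at an unadjusted p under 0.05, 1.75%), 4 at 6 months (0.0201%, with 7.25% at an unadjusted p under 0.05), 1 at 12 months (0.00503%, with 10.1%) and 0 in the 12-month libraries whose titles carry the tag Mxo4 (791, 3.98%). What the tag stands for is not given in the sources used here. Mamdc2 was negative in all 4 sets, at −1.34 ± 1.17, −4.76 ± 0.96 (adjusted p = 0.0444), −5.43 ± 1.32 (adjusted p = 0.134) and −4.43 ± 1.39 in the same order. It lay at 31.4 to 157 CPM in APPPS1_12m and at 1.28 to 5.69 CPM in APPPS1_NLRP3_12m, groups that did not overlap. In the Mxo4 set it lay at 0.197 to 229.9 CPM with the transgenes and Nlrp3 and at 2.90 to 8.25 CPM without Nlrp3, and the library at the low end of the first was replicate 56. Without 3 libraries that stand apart (NLRP3_12m replicate 45 and APPPS1_12m replicate 41, of low depth, and APPPS1_12m_Mxo4 replicate 56, with Cst7 at 10.3 CPM), the 12-month value was −5.35 ± 0.94 (adjusted p = 0.00614). At 4 months Mamdc2 was under 3 CPM in all 4 groups. F2r was at −0.23 ± 0.88, −2.32 ± 0.82, −1.03 ± 0.94 and −1.80 ± 1.03, and did not pass in this fit at any age.

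The cytokine genes differed in sign between 6 and 12 months. The difference between the 6-month and the 12-month interaction was called for 52 genes (0.262%, with 11.1% of genes at an unadjusted p under 0.05). Of these, 48 were higher at 6 months (0.241%) and 4 lower (0.0201%), with 8 of the 24 NF-kB list members among the higher. For Il1b it was 3.87 ± 0.64 (adjusted p = 0.00140), from 1.32 ± 0.44 at 6 months and −2.55 ± 0.46 (adjusted p = 0.0272) at 12 months, where Il1b was the gene called. Il1b lay at 997 to 2185 CPM in APPPS1_12m and at 789.7 to 1217 CPM in APPPS1_NLRP3_12m, while NLRP3_12m, at 401 to 1044 CPM, lay above WT_12m, at 156 to 292 CPM. Tnf differed by 2.83 ± 0.47 and Cxcl10 by 2.45 ± 0.43. Ccl4 differed by 2.44 ± 0.42 and Bcl2a1b by 2.60 ± 0.47. Cdkn1a, Rasgef1b and Snhg15, with H2-Q4, Ier3 and Il1a, were also among the 52. In a fit of the 33 libraries of these 8 groups 33 genes were called, and between 9 (without NLRP3_12m replicate 42) and 111 (without APPPS1_12m replicate 37) when 1 library was left out. Il1b, Tnf, Cxcl10, Ccl4 and Bcl2a1b passed in all 33 of those leave-outs and Il1a in 31.

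Mamdc2 was not called in that difference, at 0.67 ± 1.63 (adjusted p = 0.934). Between 6 and 4 months no gene was called (776 at an unadjusted p under 0.05, 3.9%), and none between the 6-month and the Mxo4 set (1186, 5.97%), in which Cxcl10 had 1.18 ± 0.33 and Il1b −0.15 ± 0.50. The NF-kB list had a median of 0.08 at 4 months, 0.92 at 6 months, −0.71 at 12 months and 0.02 in the Mxo4 set, and immediate-early genes −0.17, 0.77, −0.38 and −0.43. The neutrophil list had a median of −2.67 at 12 months. All WT_12m and APPPS1_12m libraries were female and all NLRP3_12m and APPPS1_NLRP3_12m libraries male, so a transgene difference that depends on sex and one that depends on Nlrp3 cannot be told apart at 12 months.

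**Figure D5:**
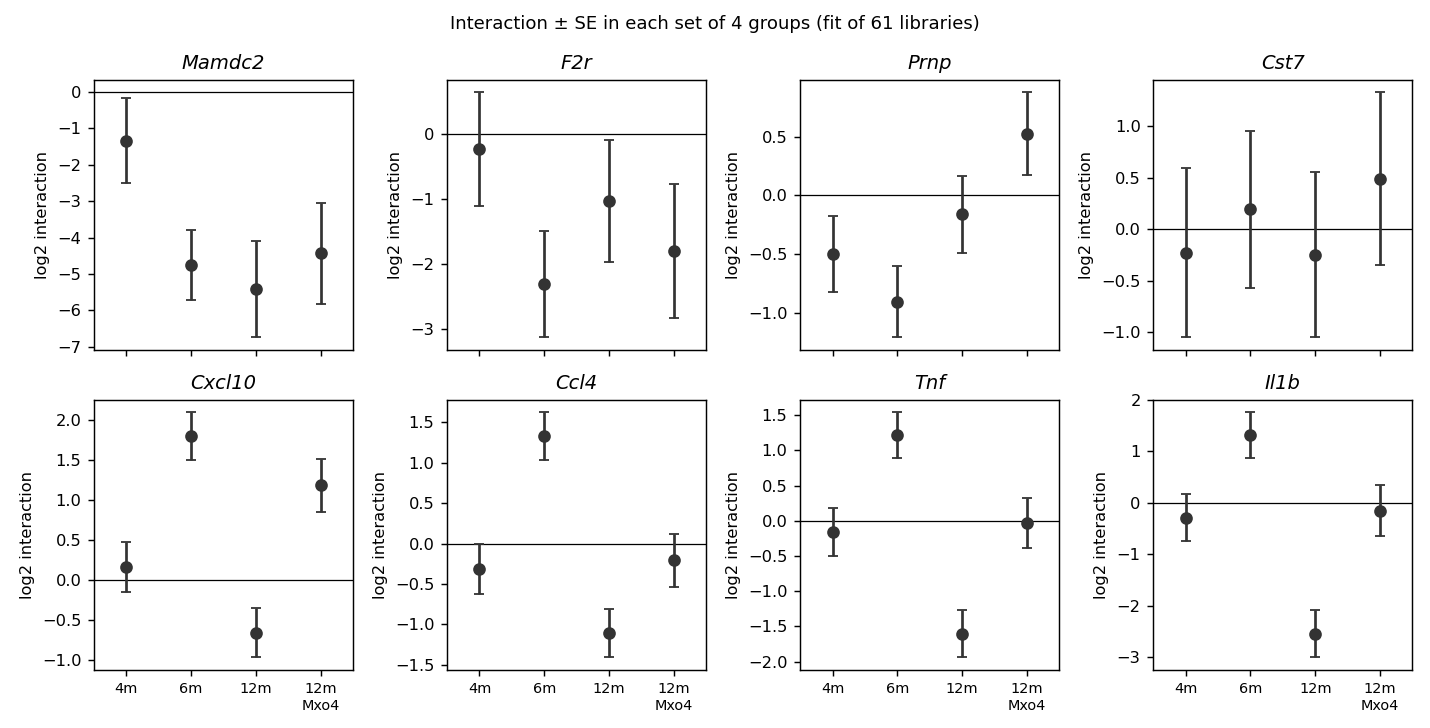
Log2 interaction with its SE (vertical axes) of 8 genes in the 4-month, 6-month, 12-month and tagged 12-month sets (horizontal axes), from the fit of 61 libraries. Mamdc2 lies below 0 in all 4 sets, Cxcl10, Ccl4, Tnf and Il1b lie above 0 at 6 months and below it at 12 months, and Cst7 lies near 0 throughout.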

How the data were processed

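RNA-seq was made from CD11b+ mouse brain cells. Per the labels, RNA was purified with a miRNA easy kit and 10 ng of it went into SMART-Seq v4 libraries, prepared in 2 batches, pooled and read on a HiSeq 2500 as pairs of 125 bp. Per the submitters' processing notes, the authors used Trimmomatic, TopHat and HTSeq with mm10, in versions not given in the sources used here. The deposited values are gene counts in 1 matrix. No molecular identifiers are mentioned, so PCR copies may count as reads, and whether counting used strand is not given. Symbols and positions come from GENCODE vM21 (GRCm38, equal to mm10, 1-based), in which 53620 of 53801 identifiers had a symbol.

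Titles end in 3 numbers, of which the last is called the replicate number here. The labels do not say which number, if any, marks the library batch. The interaction was fitted on 17 libraries with edgeR 4.0.16 in R 4.3.3 (quasi-likelihood F test, TMM scaling, 1 term per group and 1 for the second title number, 12 residual degrees of freedom, two-sided). Low genes were removed with filterByExpr (at least 10 counts, and 15 in total), which kept 18739, and calls needed a p under 0.05 after Benjamini-Hochberg adjustment. Differences are log2 values ± standard error, and levels are counts scaled to library size and TMM factor (CPM). CPM were scaled anew in the fit of 61 libraries, which gave the values at other ages. On simulated counts of 18425 genes for this comparison, 70 of 100 genes with a log2 interaction of 1 and 86 of 100 with a log2 interaction of 2 were recovered, with 4 false among 160 calls. The changed genes had a mean of 5 CPM or more and were all changed in 1 simulation, which eases the adjusted threshold. Effects of title number and sex were not simulated, so the shares recovered may not hold for the data.

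Sex was read from Xist (at least 100 CPM) and from 4 Y-linked genes (50 CPM or more in sum). The members and the 31 gene lists (18 of biology, 13 of other cells or handling) were chosen with earlier results of these data known, and lists are described by counts and medians. Named genes were Nlrp3, App, Prnp, Thy1, Cst7, Il1b, Tnf and Cxcl10, the 10 with the smallest p in each direction whose highest group mean was 5 CPM or more (predicted genes, RIKEN clones and pseudogenes left out), and the 2 with the smallest p of each list. Other list members named in the text were chosen after their values were seen. Some members of the lists are counted but not reported here by name. Promoters are from RefSeq (GRCm38.p6). Alternatives were RLE factors, library size alone, no filter, DESeq2 1.42.0, limma 3.58.1 voom, 61 libraries, the near-empty library kept, other terms for the title numbers, a term for sex, females alone and leaving out each library in turn.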

Additional observations from a re-analysis of the deposited data

Results flagged for a closer look

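Mamdc2 and F2r stood out because the transgene difference depended on Nlrp3 at the adjusted threshold, at −4.87 and −2.33 on the log2 scale. A second set of genes had an interaction that differed between 6 and 12 months in the fit of 61 libraries (edgeR, adjusted p under 0.05). Among cytokines the difference was 3.87 for Il1b, 2.83 for Tnf, 2.45 for Cxcl10, 2.44 for Ccl4 and 2.36 for Il1a. It was 2.60 for Bcl2a1b, 1.89 for the immediate-early gene Ier3 and 1.70 for Rasgef1b. It was 1.55 for Cdkn1a, 1.55 for H2-Q4, a class I chain, and 1.40 for Snhg15. All were higher at 6 months, and sex and Nlrp3 genotype cannot be told apart at 12 months.

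Of 242 sets of 4 or 5 libraries checked for a single library far from the rest, 16 held one, and chance gives about 1 in 20. In APPPS1_NLRP3_6m replicate 31 stood high for Bcl2a1b, at 252 CPM against 144 to 168 CPM, and for Rplp0, at 423 CPM against 271 to 298 CPM. Replicate 28 stood high for Rab39, at 63.9 CPM, and replicate 30 for the T cell receptor gene Trbc2, at 0.588 CPM. In NLRP3_6m replicate 33 stood high for the myelin gene Mbp, at 240.5 CPM against 38.6 to 71.1 CPM, and for Ndn (10.6 CPM), Cd79b (23.9 CPM) and the hormone subunit Cga (3.16 CPM), and low for Irak2 (118 CPM). In WT_6m replicate 19 stood high for the border macrophage receptor Cd163, at 124 CPM against 45.3 to 56.7 CPM, and for C3ar1 (637 CPM) and Thy1 (0.936 CPM). Replicate 16 stood high for Olfml3 (2482 CPM) and H2-DMa (197 CPM), replicate 17 for Cga (4.51 CPM), and replicate 18 stood low for Ndufa4 (44.4 CPM).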

How the results depend on the processing

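The replicate number occurs once per library in the whole series, so it gives no pairs. The first and second title numbers recur between groups, but the labels do not say whether they mark pairs. Against 2 genes called at 6 months (0 higher, 2 lower), RLE factors gave 6 (3 higher), library size alone 4 (1 higher, with the median of all genes at −0.11), no filter 721 (261 higher, 460 lower), DESeq2 139 (88 and 51), limma voom 17 (9 and 8), 61 libraries 4 (3 and 1), the near-empty library kept 13 (7 and 6), no term for the second title number 7 (4 higher) and a term for sex 1 higher and 1 lower. Terms for the first title number, 1 per value, gave 0, with 849 genes at an unadjusted p under 0.05. In that fit the APPPS1_6m level rests on replicate 22. Second title number 2 alone gave 0, with 1417 genes at that level. Number 1 alone holds 1 APPPS1_6m library, so its counts are not given. Chosen after seeing the data, female libraries alone, with 2 of APPPS1_NLRP3_6m, gave 6 (2 and 4) and an adjusted p under 0.1 gave 18. Leaving out 1 library gave 1 to 18 (0 to 15 higher, 1 to 6 lower), with 18 without APPPS1_NLRP3_6m replicate 25, 7 without APPPS1_6m replicate 24 and 4 without NLRP3_6m replicate 27. Mamdc2 was called in each leave-out. The 6-month minus 12-month count of 52 (48 and 4) was 33 (0 lower) in 33 libraries, 70 without the 3 libraries that stand apart, and 9 to 111 (9 to 107 higher, 0 to 6 lower) in leave-outs of the 33, all added after seeing the data.

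Of the values of the named genes and the list medians, 2392 stayed the same and 22 moved. A further 124 passed only in the alternative, 23 no longer passed and 32 changed sign. A gene's value stayed the same if it kept direction and side of the threshold, or direction alone for differences of mean CPM. A list median did so if it shifted by less than its SD over the leave-outs. Most values that changed sign were at low level or near 0, and the cause was not tested. In number 2 alone Nlrp3 was −0.28, App 0.0025, Cst7 −0.12, Ighm 0.0065, Tmem212 0.39 and Ccdc153 0.27. In number 1 alone Sparc was −0.11, Gzmb 0.0851 and Ighm 0.0404. With the first number as a term Sparc was −0.0061, Itgb2 −0.15, Ndufa2 −0.0859, Mcm2 −0.0043, Ighm 0.0015, Tmem212 0.19 and Ccdc153 0.58. In females alone Nlrp3 was −0.91, Ndufa4 0.12, S100a9 −0.0648, Cd79b 0.0020 and Ighm 0.10. Ighm was 0.00052 with RLE factors, 0.00047 with DESeq2, 0.0066 with the near-empty library and 0.0078 with sex. Over the leave-outs Nlrp3 ranged from −0.21 to 0.52, Ighm from −0.0768 to 0.0456 and Pomc from −2.86 to 0.73, the last without APPPS1_6m replicate 23.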
